A study of Mus musculus with 96 samples.

Results

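This report describes 9 genes that encode enzymes of foreign-compound metabolism in the olfactory and airway lining: Cyp2a5, Cyp2f2, Fmo2, Ces1d, Adh7, Aldh1a1, Aldh1a7, Ugt2a1 and Papss2. They are 9 of the 55487 genes in the count matrix, picked out by their symbols, and they were chosen from results on these same cells, so their levels are given as a description with no test. All 9 were found. The cells were 96 mouse horizontal basal cells (HBCs), the reserve stem cells of the olfactory epithelium (OE), collected as the daughters of 48 divisions. Adult wild-type mice of 6 to 8 weeks had received methimazole, a drug that strips the OE down to its basal layer, 2 days before the tissue was taken, and both daughters of each cultured HBC were picked after division and sequenced. Every cell carried the same genotype, injury and culture, so the design has no treated and untreated groups, and the labels name no mouse or dish. The cells are therefore 1 sample of 1 condition, read here as 48 sister pairs, and a primary culture of picked cells is a limited model of the epithelium.

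Foreign compounds are handled in steps. Phase I enzymes add or expose a reactive group: cytochromes P450 (Cyp2a5, Cyp2f2) and flavin monooxygenases (Fmo2) oxygenate, carboxylesterases (Ces1d) split esters, and alcohol and aldehyde dehydrogenases (Adh7, Aldh1a1, Aldh1a7) oxidise alcohols, including retinol, to aldehydes and acids. Phase II enzymes attach a polar group: Ugt2a1 transfers glucuronic acid, and Papss2 makes the activated sulfate that sulfotransferases use. In the nose these enzymes are best known from sustentacular cells and Bowman's glands, Cyp2a5 is the enzyme usually held to activate several nasal toxicants, and Cyp2f2 is a marker of airway secretory cells.

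The genes lie at the following places on GRCm38, the build of the deposited files. Cyp2a5 (chr7:26835305-26843548, plus strand) and Cyp2f2 (chr7:27119909-27133660, plus strand) lie apart in the same Cyp2 cluster. Adh7 occupies chr3:138217760-138233382 on the plus strand and Ces1d chr8:93166068-93197838 on the minus strand. Fmo2 is at chr1:162874317-162898726 (minus strand), Ugt2a1 at chr5:87459490-87490871 (minus strand), and Papss2 at chr19:32595790-32667187 (plus strand). Aldh1a1 (chr19:20492715-20643465, plus strand) and its paralog Aldh1a7 (chr19:20692953-20727562, minus strand) face each other. Ugt2a1 shares most of its exons with the same-strand gene Ugt2a2: 68.1% of its 75-base transcript windows occur unchanged in Ugt2a2, so reads could be divided between them. For Cyp2a5 this share was 15.7% with Cyp2a4, and for Aldh1a7 it was 2.51% with Aldh1a1. None was found for Cyp2f2, Fmo2, Papss2, Ces1d or Adh7 among the paralogs compared. Adh7, Cyp2f2 and Aldh1a1 also overlap genes on the other strand, and the library protocol does not mark strand.

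The start regions of 3 members are shown because their genes mark the extremes of what follows. Adh7 had reads in every cell, though above the floor defined below in 74 of 96. Cyp2a5 was counted almost wholly in 1 cell, and Cyp2f2, of the same cluster as Cyp2a5, was spread over many. Each line gives the bases before the gene's start in the deposited files, 5′ to 3′ (RefSeq promoter table, GRCm38.p6, plus strand: chr3:138217523-138217759, chr7:26835089-26835304 and chr7:27119705-27119908), with any match to the searched motifs in capitals:
Adh7: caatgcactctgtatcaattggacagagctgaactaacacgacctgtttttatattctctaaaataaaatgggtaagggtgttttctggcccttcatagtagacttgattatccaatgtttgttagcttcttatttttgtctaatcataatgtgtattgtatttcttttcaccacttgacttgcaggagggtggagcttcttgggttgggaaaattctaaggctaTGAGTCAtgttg
Cyp2a5: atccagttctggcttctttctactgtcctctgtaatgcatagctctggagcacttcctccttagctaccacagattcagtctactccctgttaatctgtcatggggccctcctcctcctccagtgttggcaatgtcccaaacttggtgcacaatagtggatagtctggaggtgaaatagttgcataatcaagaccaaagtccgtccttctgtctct
Cyp2f2: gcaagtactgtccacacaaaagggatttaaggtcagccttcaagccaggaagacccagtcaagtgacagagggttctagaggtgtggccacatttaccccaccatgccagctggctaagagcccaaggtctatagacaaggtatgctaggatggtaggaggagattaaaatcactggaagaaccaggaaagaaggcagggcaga

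The motifs were those usually bound by AP-1 (TGANTCA), by NRF2 at antioxidant response elements (TGACNNNGC) and by the aryl hydrocarbon receptor (GCGTG), each searched on both strands, and they do not overlap here. The Adh7 window held TGANTCA once, starting 12 bases before the gene's start, and neither of the other motifs. The Cyp2a5 and Cyp2f2 windows held none of the 3. Over the 250 bases upstream of all 32851 starts in the table, 6.75% held TGANTCA, 10.2% held TGACNNNGC and 28.2% held GCGTG. Of the 8 members with an entry in the table, Aldh1a1 was the other gene with TGANTCA, at 1 of its listed starts, and no member held either of the other motifs. Ces1d has no entry.

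Libraries held between 29454150 and 44849003 counts on genes (median 36152760). ERCC RNA, a spike-in added in equal amount to each lysate, took 1.06% to 5.75% of counts. Scaled counts below are divided by a size factor from the 22 ERCC transcripts counted in every cell. The basal markers Trp63 (median 6999 counts), Krt5 (106400) and Krt14 (135243) were counted in 96 of 96 cells. Of the 8 sustentacular markers, Cyp1a2, Ermn and Sult1c1 were at 0 in every cell, and the other 5 reached 100 counts in some cell. Cyp2g1 reached 10 counts in 1 cell, and Il33 and Reg3g reached 10 in fewer than 10% of cells, whereas Sox2 and Cbr2 were counted in all. Of the 6 hepatocyte markers, from a tissue where several of these enzymes are abundant, none was counted in any cell. The reads carry no molecular identifiers. Every interval given is an exact binomial one that takes cells, or pairs, as independent. It covers no difference between mice or dishes. Intervals over the 96 cells also leave out the pairing, so they are too narrow for genes in which sisters resemble each other.

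The second daughter of pair 4, cell 4-2, stood apart and has to be described first. It held 259709 reads of Cyp2a5, 174005 of Ugt2a1, 49344 of Cyp2f2, 45396 of Papss2 and 7462 of Fmo2, the highest count of each among all cells. The next highest counts were 546, 5495, 8091, 2107 and 1208. The same cell had the lowest Krt5 (6760), Krt14 (691) and Krt6a (905) of the 96 and the highest Aqp5 (326492), a water channel of glands and airway, while it kept 1403 reads of Trp63. Its Krt8 (70750) and Krt18 (86002) lay within the range of the others. Of the 8 sustentacular markers, Cbr2 (171926 reads, 92 cells lower) and Sox2 (1558, 90 cells lower) were counted in it, and Cyp2g1, Cyp1a2, Ermn, Sult1c1, Il33 and Reg3g were at 0. Of the 8 Bowman's gland markers, Aqp5 and Sox9 (1126 reads, 84 cells lower) were counted in it and the other 6, Sox10 and Muc5b among them, were at 0. Its sister 4-1 held 87 reads of Cyp2a5, 41 of Ugt2a1, 235 of Papss2 and no Fmo2, but 6205 of Cyp2f2, and it had the highest Krt6a of all cells (787008). Cell 4-2 had 38588945 counts and 11654 genes with a count, the second lowest number (lowest 11403, median 12866), and the highest mitochondrial share of all libraries (3.84%, median 1.94%). The part of RNA quality in its counts was not tested. Whether it was an HBC at the time of picking was not tested.

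The file names place each library in 1 of 12 sets and at 1 of 8 positions, and the labels do not say what these stand for. The 18 libraries that share the set or the position of cell 4-2 held between 43 and 90 reads of Cyp2a5 each (median 63.5), which is 0.0245% of the count in cell 4-2. Of the other 77 libraries, 75 had 0 reads and 2 had more than 10. Sprr2f, a cornified-envelope gene also led by cell 4-2 (135168 reads), behaved in the same way: the 18 libraries held a median of 35 reads, and 73 of the other 77 held 0. The rate for Cyp2a5 was therefore used to give every gene and cell a floor, 0.0245% of the reads of that gene in the libraries sharing its set or position, and counts of at least 10 that also exceed 3 times this floor are called above the floor. Whether reads had passed between libraries was not tested. Both the plain count of cells with 10 or more reads and the count above the floor are given below.

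**Figure D1:**
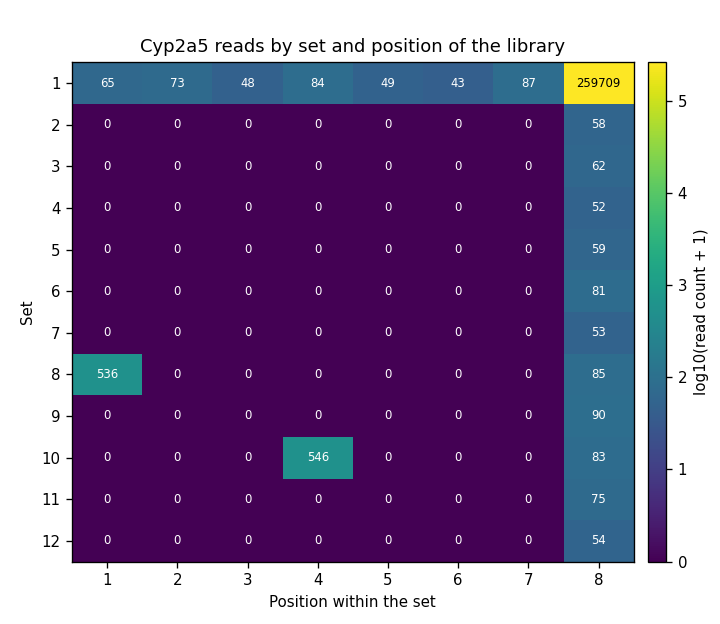
Cyp2a5 reads in each of the 96 libraries, arranged by set (rows) and position within the set (columns), with the colour showing log10(read count + 1). The 18 libraries in the row and column of cell 4-2 (259709 reads) hold 43 to 90 reads, and elsewhere 2 libraries, with 536 and 546 reads, are above 0.

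Adh7, the class IV alcohol dehydrogenase that oxidises ethanol and retinol in surface epithelia, was the member with the widest presence. Its counts ran from 50 to 216224 with a median of 9216 and quartiles of 961 and 36228, and all 96 cells had 10 or more. A group of 21 cells lay between 50 and 199 reads, and the next cell had 509. Together these 22 cells lay at 0.625 to 2.78 times their floor, so that 74 of 96 cells (77.1%, exact 95% interval 67.4 to 85) were above it, with a median of 14156 reads. The 3 highest cells were both sisters of pair 15 (159371 and 216224 reads) and cell 12-1 (144987), whose sister 12-2 followed with 108867. At the other end both sisters of pair 24 were the lowest, with 50 and 59 reads. Adh7 thus differed over more than 3 orders of magnitude between cells that shared genotype, injury and culture. Its paralogs behaved differently: Adh5, the glutathione-dependent formaldehyde dehydrogenase found in nearly every tissue, was counted in all cells within a narrower range (229 to 14771 reads, median 6296), and Adh1, the liver-type enzyme, reached 10 reads in 7 cells.

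Aldh1a1, which makes retinoic acid from retinal, was nearly absent. Cell 41-2 had 2577 reads and cell 26-1 had 440, and the highest count elsewhere was 9. The sisters 41-1 and 26-2 had 0. Aldh1a7 was at 0 in 96 of 96 cells, with an exact 95% upper limit of 3.77% of cells, and Aldh1a2 was at 0 as well. The aldehyde dehydrogenase of this subfamily that was present was Aldh1a3, another retinal dehydrogenase, with 10 or more reads in 95 cells (median 5022). Aldh3a1, the aldehyde dehydrogenase known from cornea and airway, was higher still (72951, range 267 to 228739). Neither is a member of the group.

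Ces1d, a carboxylesterase that hydrolyses esters and triglycerides, split the cells. Its counts ran from 0 to 25678 with a median of 140, and no cell lay between 50 and 230 reads: 48 cells were at or below 50 and 48 at or above 230. With 10 reads as the minimum it was counted in 71 cells (74%), and 50 cells (52.1%, 41.6 to 62.4) were above the floor. The highest counts were in cells 29-2 (25678), 38-2 (16505) and 12-2 (11786). Of its closest paralogs, Ces1e had 10 reads or more in 6 cells, Ces1g in 2 and Ces1f in none, while the more distant Ces2g had them in 92 cells (median 1701).

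Cyp2f2 was the P450 member found outside cell 4-2. It had 10 or more reads in 40 cells (41.7%) and was above the floor in 28 (29.2%, 20.3 to 39.3). Counts in the cells after 4-2 were 8091 in 26-1, 6878 in 29-1, 6205 in 4-1 and 6013 in 38-2. Cell 4-2 held 44.2% of all its reads. Cyp2a5, by contrast, was confined at 100 reads or more to 3 cells: 4-2, 38-2 (546) and 29-1 (536), and the sisters 38-1 and 29-2 had 0 reads. Cell 4-2 alone held 99.1% of its reads, and the minimum of 10 reads, which counts 21 cells, takes in the 18 libraries described above. The 2 other Cyp2a5 cells were among those with the most Cyp2f2. Cyp2a4, the close paralog, had 953 reads in cell 4-2 and reached 10 in no other cell, and Cyp2a12 was at 0. Of the 75 genes of P450 families 1 to 4 in the files, 31 had 10 or more reads in some cell and 11, including both members, passed the filter of 10 reads in at least 10% of cells. Cyp2a5 passed only through the 18 libraries near its floor, since 3 cells (3.1%) were above it.

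Fmo2, the flavin monooxygenase of lung, passed this filter narrowly, with 10 reads or more in 10 cells (10.4%, 5.11 to 18.3), all above the floor. After cell 4-2 its counts were 1208 in 39-2, 1004 in 26-1, 725 in 6-2 and 399 in 38-2. Pairs 26 (1004 and 183 reads), 27 (109 and 168) and 6 (51 and 725) had it in both sisters. Fmo5 reached 10 reads in 19 cells and Fmo1 in 7.

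Among the conjugating enzymes, Ugt2a1, the olfactory glucuronosyltransferase for odorants, had 10 or more reads in 36 cells (37.5%) and was above the floor in 20 (20.8%, 13.2 to 30.3). After cell 4-2 (83.6% of all its reads) the highest counts were 5495 in 39-2 and 4530 in 29-2. Ugt2a2, with which it shares exons, had at most 2657 reads, and 1934 in cell 4-2. Papss2 had 10 or more reads in 36 cells and was above the floor in 28 (29.2%, 20.3 to 39.3), and cell 4-2 held 73.8% of its reads. The second highest cell was 27-2 (2107 reads), followed by 15-1 (1593). Its paralog Papss1, which makes the same sulfate donor, was counted in 90 cells with a median of 1088 reads.

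**Figure D2:**
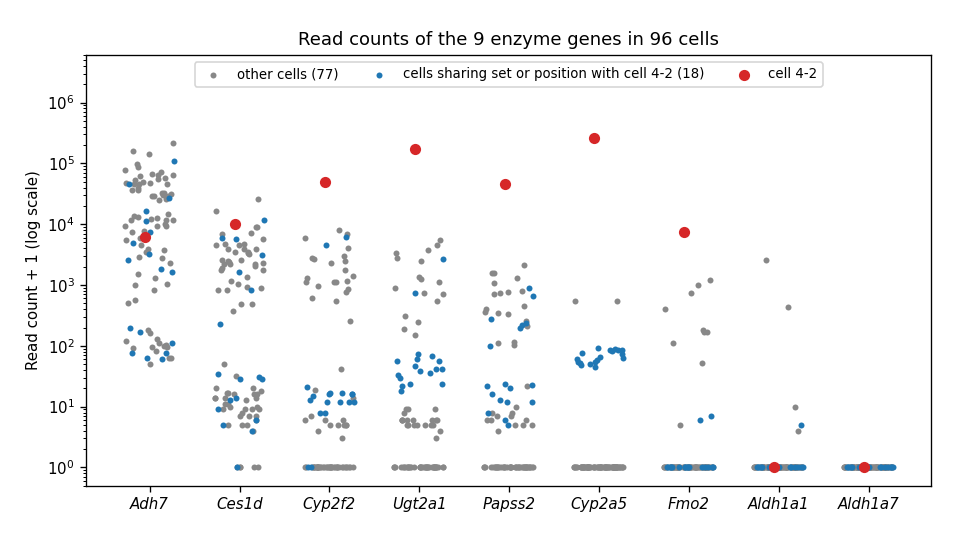
Read counts plus 1 of the 9 genes (log axis), 1 point per cell, with cell 4-2 in red, the 18 cells that share its set or position in blue and the other 77 in grey. Adh7 and Ces1d fall into a low and a high band, and the red point is the highest of its column for Cyp2f2, Ugt2a1, Papss2, Cyp2a5 and Fmo2.

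Compared per transcript length, on the deposited TPM scale (read density per transcript, brought to the same total in each library), the medians over 96 cells were 117 for Adh7, 5.77 for Ces1d, 0.0883 for Cyp2f2, 0.0647 for Ugt2a1 and 0.0409 for Papss2, and 0 for the other 4. Adh7 exceeded Ces1d in 85 of 96 cells, and Ces1d exceeded Cyp2f2 in 77. Cyp2f2 was above Ugt2a1 in 30 cells, below it in 41 and equal to it in 25, and Ugt2a1 was above Papss2 in 43 and below it in 29, so these 3 could not be put in order beyond their spread. The quartiles of Adh7 TPM were 14.7 and 508. The highest TPM of any member was 5145, for Cyp2a5 in cell 4-2, and the second highest value of Cyp2a5 was 12.2.

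Cells differed in how many members they combined. Above the floor, 13 cells had none of the 9, 19 had 1, 29 had 2, 17 had 3, and 18 had 4 or more. The most were 7, in cells 4-2 and 38-2, followed by 6 in 29-1. Cell 38-2 held 546 reads of Cyp2a5, 6013 of Cyp2f2, 906 of Ugt2a1, 399 of Fmo2, 358 of Papss2, 16505 of Ces1d and 48111 of Adh7. Its sister 38-1 held 0, 1100, 746, 0, 101, 3949 and 28736 reads of the same genes, lower for each. Cells 29-1 and 29-2 likewise shared most members. Aldh1a1 was found with the others in cell 26-1, beside Cyp2f2, Fmo2, Ces1d and Adh7. In cell 41-2 it stood beside Adh7 (98588 reads) while Ces1d had 16.

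The pairing lets the members be compared between cells of the same division. At 10 reads, 29 pairs had Ces1d in both sisters and 13 in 1 only (31.0% of the 42 pairs with it). Of the 30 pairs with Cyp2f2, 20 had it in 1 sister only (66.7%). The same share was 75.9% of 29 pairs for Papss2, 56% of 25 for Ugt2a1 and 57.1% of 7 for Fmo2. Above the floor these shares were 38.7% of 31 pairs for Ces1d, 60% of 20 for Cyp2f2, 78.3% of 23 for Papss2, 57.1% of 14 for Ugt2a1 and 19.5% of 41 for Adh7. Cyp2a5 was then seen in 1 sister of 3 pairs and Aldh1a1 in 1 sister of 2, never in both. For scale, 28 ERCC transcripts that reached 10 counts in 10 to 85 cells, and that cannot be inherited, were in 1 sister only in 15.2% to 100% of pairs, with a median of 66.5%. That wide range is no match for single members, because the share falls as more cells hold a feature. At 10 cells, as for Fmo2 (57.1%), ERCC transcripts had 88.9% to 100%. At 18 and 24 cells, near Ugt2a1 (20 cells, 57.1%), they had 80% to 94.1%. At 28 cells, as for Cyp2f2 (60%) and Papss2 (78.3%), the share was 88%. At 47 to 52 cells, near Ces1d (50 cells, 38.7%), it was 52.9% to 73.2%. The member values here use the floor, whereas the ERCC values use 10 counts. At 69 to 78 cells, near Adh7 (74 cells, 19.5%), it was 30.4% to 43.2%. Cyp2a5 and Aldh1a1 had no match. How far detection in 1 sister followed from the sampling of rare molecules was not tested.

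Fold differences between sisters were read on scaled counts plus 1. Sisters differed by 1.5-fold or more in 27 of 48 pairs for Adh7 (56.2%, 41.2 to 70.5), in 36 for Ces1d and for Papss2 (75% each), in 33 for Ugt2a1 (68.8%), in 30 for Cyp2f2 (62.5%), in 16 for Cyp2a5 and in 10 for Fmo2. A few reads against 0 count as such a difference: the median over the 7 tested members was 62.5%, and 37.5% both with the floor set to 0 and on deposited TPM. Reaching this in at least 24 of the 48 pairs was common: 79.5% of the 14463 tested genes did, against 5 of the 7 members that passed the filter, and the median tested gene differed in 68.8% of pairs. The other 2 members are poorly matched to the tested genes. Cyp2a5 passed the filter only through libraries near its floor, with 3.1% of cells above it. Fmo2 would not pass without pair 4, where 9.57% of cells had 10 reads or more. The 22 ERCC transcripts counted in every cell had a median of 21.9%. The median sister ratio was 1.6 for Adh7, 3.57 for Ces1d and 7.82 for Papss2. Neither sister was above the floor in 7, 17 and 25 of the 48 pairs, so the value of Papss2 rests largely on a few reads against 0. The widest single differences for Adh7 were in pair 3, with 168 against 16620 reads, and in pair 8, with 6022 against 61.

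Resemblance of sisters was measured by the intraclass correlation of log2(scaled count + 1), which is 1 when all spread lies between pairs and 0 when sisters are no more alike than unrelated cells. Adh7 had 0.69, higher than 99.3% of tested genes, whose median was 0.16. Cyp2f2 followed with 0.55, then Ces1d with 0.47, Fmo2 with 0.41, Ugt2a1 with 0.40, Cyp2a5 with 0.23 and Papss2 with 0.08, while Aldh1a1, which did not pass the filter, had -0.03. A value of 0.5 or more was reached by 2 members, Adh7 and Cyp2f2, and by 6.9% of tested genes. Both sisters of a pair always came from the same set of 8 libraries. With the mean of each set taken out, Adh7 was at 0.65, Cyp2f2 at 0.52, Ces1d at 0.44, Fmo2 at 0.36, Ugt2a1 at 0.33 and Papss2 at 0.05, whereas Cyp2a5 fell to -0.02 and the median tested gene was at 0.13. With counts at or below the floor set to 0, Adh7 was at 0.63, Cyp2f2 at 0.56, Ces1d at 0.53 and Cyp2a5 at -0.02. Without pair 4, Adh7 was at 0.71, Fmo2 at 0.54, Ces1d at 0.52, Cyp2f2 at 0.497, Cyp2a5 at 0.07 and Papss2 at 0.01, so that which genes pass 0.5 beside Adh7 depends on that pair. The 28 sparse ERCC transcripts ran from -0.30 to 0.24. The 22 ERCC transcripts counted in every cell had a median of 0.07 and a 95th percentile of 0.472. Fmo2 and Ugt2a1 lay below that percentile and Ces1d (0.474) just above it. Ces1d, Fmo2 and Ugt2a1 were above the highest of the sparse ERCC transcripts, whereas Cyp2a5 and Papss2 were not. With set means taken out the median of the 22 was -0.04. Above the floor, 5 pairs had Papss2 in both sisters and 18 in 1, while 19 had Ces1d in both and 12 in 1.

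**Figure D3:**
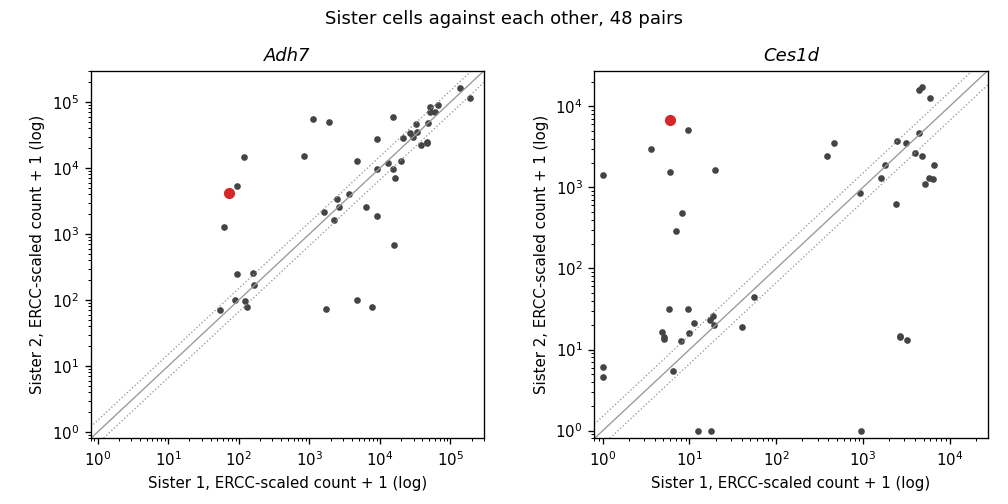
Scaled counts plus 1 of Adh7 (left) and Ces1d (right) in the first against the second sister of each of 48 pairs (log axes), with equality as a solid line, 1.5-fold differences as dotted lines and pair 4 in red. Adh7 runs from pair 24, with 50 and 59 reads, to pair 15, with 159371 and 216224, and in 12 pairs of Ces1d 1 sister lies in the low band and the other in the high band.

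**Figure D4:**
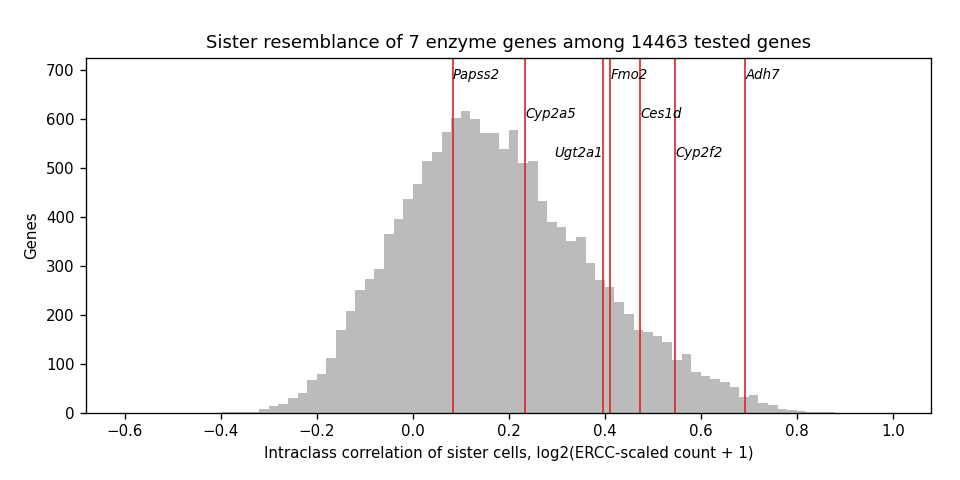
Histogram of the intraclass correlation of sister cells for 14463 tested genes, with the 7 members that passed the filter as red lines. Adh7 (0.69) stands at the right edge of the distribution and Papss2 (0.08) left of its median of 0.16.

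The members followed each other only in part. Aldh1a7 does not vary, which leaves 28 pairs of members, with a median Spearman correlation over the 96 cells of 0.11. The highest were Cyp2a5 with Ugt2a1 (0.49) and with Papss2 (0.45), and Adh7 with Ces1d (0.41). With counts at or below the floor set to 0, the first 2 fell to 0.35 and 0.27 (without pair 4 they were 0.46 and 0.42), Adh7 with Ces1d kept 0.41, and Cyp2f2 rose with Fmo2 (0.31 to 0.44) and with Ces1d (0.32 to 0.42). Adh7 had low values with Cyp2f2 (0.04), Ugt2a1 (0.03) and Papss2 (0.04), which became 0.17, 0.14 and 0.14 with the floor set to 0, and the median of the 28 became 0.20. Between Adh7 and Ces1d the correlation was 0.49 over the means of 48 pairs and 0.18 over the differences between sisters. These cells share libraries, pairs and sparse counts, so the values are descriptions.

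An enzyme score, the mean over the 8 varying members of the standardised log2 scaled count, was set against each other tested gene. Of 14456 genes outside the group, 75 (0.519%) correlated at 0.3 or more and 576 (3.98%) at -0.3 or less, and the median was -0.08. The count at 0.3 or more rests on the scaling: it was 156 with scaling to total counts, 211 with the median of ratios over genes and 202 on deposited TPM. Highest were Fetub (0.54), a fetuin-type protease inhibitor, and Aqp4 (0.53), a water channel of airway and gland cells, then Gstm1 (0.51), Card19 (0.51), Atp1b1 (0.50), Gstm3 (0.50), Epas1 (0.48), Gstm2 (0.47), Ephx1 (0.44) and Lypd2 (0.44). Gstm1, Gstm2 and Gstm3 are glutathione transferases and Ephx1 is the microsomal epoxide hydrolase, so 4 of the 10 genes belong to the same metabolic steps as the members. Lowest were S100a10 (-0.53), Fam102b (-0.52), Rps7-ps2 (-0.48), Gm9844 (-0.48), Gm11814 (-0.48), Msln (-0.47), Tmsb10 (-0.47), Hsp90aa1 (-0.46), Gm3788 (-0.46) and Hmga2 (-0.45). The score correlated with the ERCC share of a library at 0.25 and with its total counts at 0.00, and these correlations were not removed.

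Adh7 alone, with reads in every cell and above the floor in 74, gave the clearest neighbours. The 22 cells near the floor enter these correlations. Its 10 most similar genes were Gstm1 (0.68), Aldh3a1 (0.66), Cbr1 (0.61), Gstm2-ps1 (0.60), Nqo1 (0.60), Gstm3 (0.58), Cbr3 (0.58), Gclc (0.56), Ugt1a6a (0.56) and Ugt1a6b (0.56). Cbr1 and Cbr3 are carbonyl reductases, Nqo1 a quinone reductase, Gclc the catalytic subunit of the enzyme that starts glutathione synthesis, and Ugt1a6a and Ugt1a6b glucuronosyltransferases that share exons. Correlations of 0.3 or more with Adh7 were found for 89 genes (0.616%) and of -0.3 or less for 293 (2.03%). Without pair 4 Gstm1 had 0.68 and Aldh3a1 0.66. Over the means of pairs the values were 0.77 for Gstm1, 0.74 for Aldh3a1 and 0.59 for Nqo1, and over differences between sisters 0.16, -0.04 and 0.29. Over the 10 genes the differences between sisters gave from -0.04 (Aldh3a1) to 0.36 (Gclc), with 0.33 for Gstm2-ps1 and 0.32 for Cbr1 and Ugt1a6b, each lower than the value over the means of pairs. Within the 12 sets Gstm1 had 0.59, Aldh3a1 0.58 and Nqo1 0.49, and with scaling to total counts the 3 stood at 0.74, 0.69 and 0.70. The intraclass correlations of the 10 genes ran from 0.43 (Ugt1a6b) and 0.51 (Gclc) to 0.81 (Gstm1). Lowest with Adh7 were Anxa2 (-0.53), Flnc (-0.50), Mllt3 (-0.48) and Rgs12 (-0.46).

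**Figure D5:**
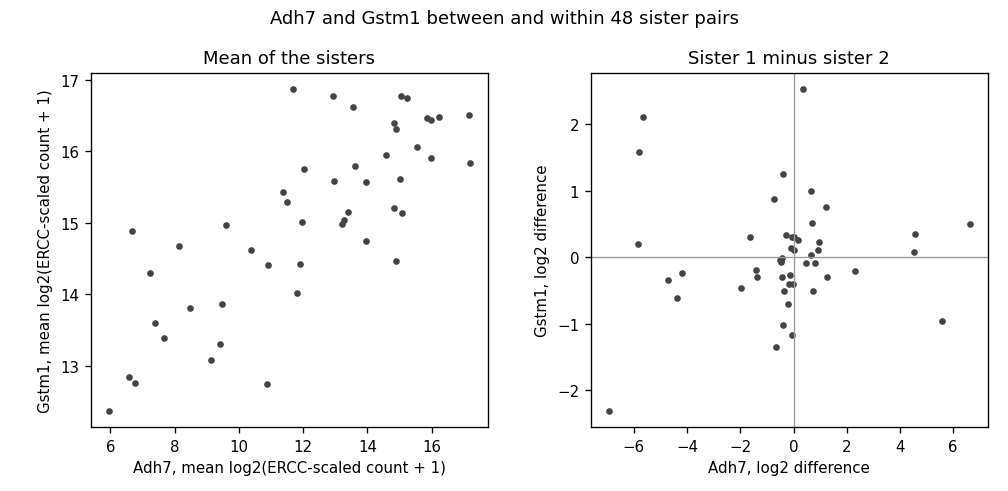
Log2 scaled counts of Adh7 against Gstm1 as the mean of both sisters of each of 48 pairs (left, Spearman correlation 0.77) and as the difference between the first and the second sister (right, 0.16). The genes follow each other between pairs, and much less within them.

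Most of these neighbours recur in the wider enzyme lists. Of the 4 glucuronosyltransferases tested beside Ugt2a1, all 4 reached 0.3 with the enzyme score (median 0.39), and Ugt1a6a, Ugt1a6b and Ugt1a7c (0.52) reached it with Adh7. With the floor set to 0, 3 of the 4 reached 0.3 with the score, Ugt2a2 being at 0.18. These genes share sequence, Ugt2a2 with the member Ugt2a1 and Ugt1a7c with Ugt1a6a (50.2% of the latter's 75-base windows), so the 4 values are not independent. Among 19 glutathione transferases 3 reached 0.3 with the score (median 0.06) and 7 with Adh7 (median 0.22), Gsta3 (0.53) and Gsta2 (0.42) included, while Gsta4 (0.22) and Gstp1 (0.17), although abundant, did not. Of 13 other phase I and redox enzymes 4 reached 0.3 with the score, namely Ephx1, Cbr2 (0.39), Nqo1 (0.38) and Cbr1 (0.38), and P450 reductase, Por, which supplies electrons to the P450s, was at -0.0016. Of the 9 P450s outside the group, Cyp1b1 alone reached 0.3 (0.38). Of 16 alcohol and aldehyde dehydrogenases Aldh3a1 alone did (0.39), of 4 carboxylesterases none (Ces1h 0.22), and of 4 sulfotransferases and PAPS synthases none, Sult1b1 being nearest (0.298). The flavin monooxygenase Fmo5 was at -0.03. These counts depend on the floor. With it set to 0, Aldh2 (0.39) joined Aldh3a1, and Ces1h (0.33) and Sult1b1 (0.32) passed 0.3. The glutathione transferases at 0.3 or more were then 5 and the other phase I and redox enzymes 5, while the P450s stayed at 1.

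Transporters and regulators showed no such values. Of 7 efflux transporters none passed 0.3 in either direction (Abcc5 0.17, Abcb1b -0.25), and of 10 tested regulators none did: Nfe2l2, which encodes NRF2, was at 0.08 with the score and 0.20 with Adh7, Ahr at -0.02 and -0.05, and Nr1i3 at -0.22 and -0.11. The same held for 11 genes of retinoid metabolism and signalling, from Dhrs9 (-0.26) to Dhrs3 (0.13). RNA levels of a regulator are not its activity, which was not measured.

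The cell-state lists are read against the median of -0.08 over all tested genes outside the group. Of 8 HBC markers, Cd44 (-0.43) and Itga6 (-0.33) were at -0.3 or less, while Trp63 (0.00) and Krt5 (0.06) were near 0. Of 10 squamous genes 2 were at -0.3 or less, Cnfn (-0.36) and Serpinb2 (-0.36), with a median of -0.28, and the 4 wound-response keratins had a median of -0.23. None of 12 cycling genes passed either limit (median -0.06), but their median was -0.20 with values centred within the 12 sets and -0.24 without the pairs that hold cell 4-2 or a library sharing its set or position. On the positive side 3 of 5 airway surface genes reached 0.3, Aqp4, Lypd2 and Aqp3 (0.32), as did the Bowman's gland marker Aqp5 (0.44) and the sustentacular marker Cbr2, whereas Sox9 and Sox2, the other tested gene of each of these lists, were both at 0.03. Of the 8 respiratory markers none passed the filter, and Scgb1a1, Scgb3a1 and Muc5ac were at 0 in all cells. Of the neuron and stromal lists 1 gene each was tested, at -0.10 and -0.01.

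The sparser members had few close neighbours. Sprr2f followed Cyp2a5 (0.84), both being counted in cell 4-2 and the 18 libraries that share its set or position, and Ugt2a1 was followed by Cers4, Ugt2a2 and Atp1b1 (0.42 each). Cyp2f2 was followed by Grin1os (0.44), Faim2 (0.41) and Aqp4 (0.40), Papss2 by Atp6ap2 (0.43), Fmo2 by Cpq (0.42) and Aldh1a1 by Iffo1 (0.40). Ces1d, present in more cells, was followed by Ephx1 (0.55), Card19 (0.52) and Aqp4 (0.51).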

How the data were processed

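RNA of 96 single cells was captured with oligo-dT beads, amplified without molecular identifiers (G&T-seq) and sequenced with ERCC spike-ins. Per the labels and the study's methods, the authors trimmed reads with Trimmomatic 0.39, aligned them to GRCm38 with STAR 2.7.11a and quantified them with StringTie 2.2.1. They deposited whole-number counts per gene for all cells, used here for every comparison, and TPM per cell, which the authors scaled to transcript length and library, used here for levels between genes. Counts were divided by size factors, the median of ratios over 22 ERCC transcripts. Genes with at least 10 counts in at least 10% of cells were tested (14463), logs used a pseudocount of 1, and intervals are exact binomial at 95%. Correlations are Spearman's, over 96 cells that are no independent samples, and no p-value was computed. The members and all gene lists were chosen with earlier results of these data known. Named genes were the members and paralogs, the 10 highest and 10 lowest correlations with the score, the 3 nearest genes of each member, and the extremes and markers in each list. The floor, and the 10 genes nearest Adh7, were added after the data were seen, as was the removal of pair 4. Methods were checked on simulated data. Computation used Python 3.11.15, numpy 2.4.6, pandas 2.3.3 and scipy 1.17.1.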

Additional observations from a re-analysis of the deposited data

How the results depend on the processing

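Of 53 recomputed summary values, 46 moved by less than the spread between members or by less than 1.5 times. Leaving out Aldh1a7 is among them and could change nothing, since that gene enters no correlation. The score against the ERCC share (0.247, and 0.249 with the floor set to 0) was counted as unmoved without this rule. The allowed spread is wide: the members' median intraclass correlation fell from 0.41 to 0.24 when centred within the 12 sets and still counts as unmoved. The median share of pairs with a 1.5-fold sister difference (62.5%) became 37.5% both with deposited TPM and with counts at or below the floor set to 0. The number of genes at 0.3 or more with the enzyme score (75) became 156 with scaling to total counts, 211 with the median of ratios over genes, 202 with deposited TPM, 121 with the floor set to 0 and 126 without the pairs that hold cell 4-2 or a library sharing its set or position. A change of sign was looked for only in medians of 0.3 or more in size. These were the list medians of the glucuronosyltransferases (0.39) and of the airway surface genes (0.32), and neither changed sign. Single genes were not part of that check. Sister pairs were compared throughout, and no fit of groups with a pair block was made, since the cells form a single group. Leaving out pair 4, leaving out the sharing pairs and using the floor were chosen after the data were seen. Counts at or below 3 times the floor cannot be told apart from it, and the floor differs by gene (median 0.31 reads for Fmo2, 101 for Adh7). The sets, the labels' missing mice and dishes, and 1 cell with the highest counts of 5 members limit what the 96 cells can show.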

Other observations

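Cell 4-2 led in more than the enzymes: 29 genes with at least 1000 reads there had at least 5 times the count of any other cell, and 5 of them were members. The others, named after their values were seen, included Sprr2f, Sgk1 (119391 reads against at most 23074 elsewhere), a kinase of ion transport, Sftpd (32646 against 3932), which encodes surfactant protein D, and Alox15 (6280 against 4), a lipoxygenase. Vmo1 had 10288 reads against 13, Pon1, a lactonase, 2272 against 4, and Dhrs3, a retinal reductase, 13972 against 2609. Gstt2, a glutathione transferase, had 9502 against 966, and the pseudogene Cyp2a21-ps, which shares 15.9% of its 75-base windows with Cyp2a5, had 2668 against 0. The sister 4-1 had 1094 reads of Sgk1, 15 of Sftpd and none of Alox15 or Pon1.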
